A study of Arabidopsis thaliana with 39 samples.

Results

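The tetraspanins of Arabidopsis thaliana were followed across adjoining parts of the oscillation zone of the root tip, where the positions of future lateral roots are set. All genes whose symbol in the array's probe table is TET followed by a number were taken, which gave 15 genes with 1 probe set each (TET2 to TET16), out of 13513 probe sets that each name a single gene (13350 genes in all). OZ2 was profiled on 19 arrays and OZ1 on 20 arrays, 1 biotin-labelled total RNA sample per array. All plants were ecotype Columbia, 5 days old on standard media, with the line DR5-GUS given as the source, in which an auxin-responsive promoter drives a reporter enzyme. No group without the reporter and no treated group is part of the comparison. The description field puts OZ2 above OZ1, whereas the tissue field says the reverse, so the regions are called by their names alone. The submitters also gave each array a position from 1 to 39, used to look for periodic expression, with OZ1 at the lower positions and OZ2 at the higher.

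Tetraspanins are small proteins that cross the membrane several times, carry a large loop outside the cell, and gather with each other and with other proteins into membrane domains. In plants they are found in the plasma membrane, at plasmodesmata and on extracellular vesicles. TET8 is the usual marker of such vesicles in Arabidopsis, TET5 and TET6 act redundantly in root and leaf growth, TET13 is known from the root apex and lateral root primordia, and TET9, TET11 and TET12 have been described in gametes.

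Each probe set has 1 deposited signal per array, given here as log2. Only probe sets with an average log2 signal over 5.69 (a signal of 51.6, the 40th percentile) entered the test. TET2, TET3, TET5, TET6, TET7, TET8, TET10 and TET12 passed this filter, and TET4, TET9, TET11, TET13, TET14, TET15 and TET16 did not. TET12 lay above the level on 18 of 19 OZ2 arrays and on 7 of 20 OZ1 arrays, so it passed the filter mainly through OZ2. Differences are log2 OZ2 minus OZ1 from limma, with the standard error and a p adjusted over all 13647 tested probe sets. For transcripts measured in whole tissue, fewer cells of a type and less RNA per cell cannot be told apart.

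The arrays were scanned on 3 days, of which only scan day 1 held both regions (10 OZ2 and 12 OZ1 arrays); scan day 3 held 9 OZ2 arrays and scan day 2 held 8 OZ1 arrays. A fit blocked by scan day therefore takes its difference from scan day 1, and shares the other days' arrays only for the spread; region and day cannot be told apart on the other days. Over all other tested probe sets, 6 arrays lay nearer the other region than their own. These were OZ2-32 and OZ2-38 in OZ2, and OZ1-2, OZ1-3, OZ1-6 and OZ1-10 in OZ1. Results are given with and without them where they matter. Leaving them out tends to widen a difference by construction, since they were picked by how they compare with the 2 regions. The bacterial hybridisation controls held over 5% of the signal on 5 OZ2 and 6 OZ1 arrays.

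Of the 8 tetraspanins above the filter, TET12, TET8, TET6, TET5 and TET2 were higher in OZ2, TET7 was lower, and TET3 and TET10 did not pass the test. Among all tested probe sets 13.3% were called higher and 15.6% lower in OZ2. The median log2 difference was 1.16 over the 8 tetraspanins and -0.09 over all tested probe sets. Because the filter favours a gene that is bright in one region, the same was computed with no filter. There 5 of all 15 tetraspanins were called higher and 1 lower, against 8.41% and 8.66% of 22746 probe sets, with median log2 differences of 0.68 over the 15 and 0.02 over all. Blocked by scan day, 2 of the 8 were higher (TET12 and TET6) and TET7 was lower, where 4.56% and 6.7% of all tested probe sets were called. Within scan day 1 alone, TET12 was higher and TET7 lower, against 2.31% and 3.56%. Without the 6 arrays the count was 5 higher and 1 lower, against 18.9% and 22.3%. Scan day 1 without them (8 OZ2 and 9 OZ1 arrays, a setting chosen after seeing the data) gave 4 higher, all but TET2, and 1 lower, against 12.5% and 14.6%.

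**Figure D1:**
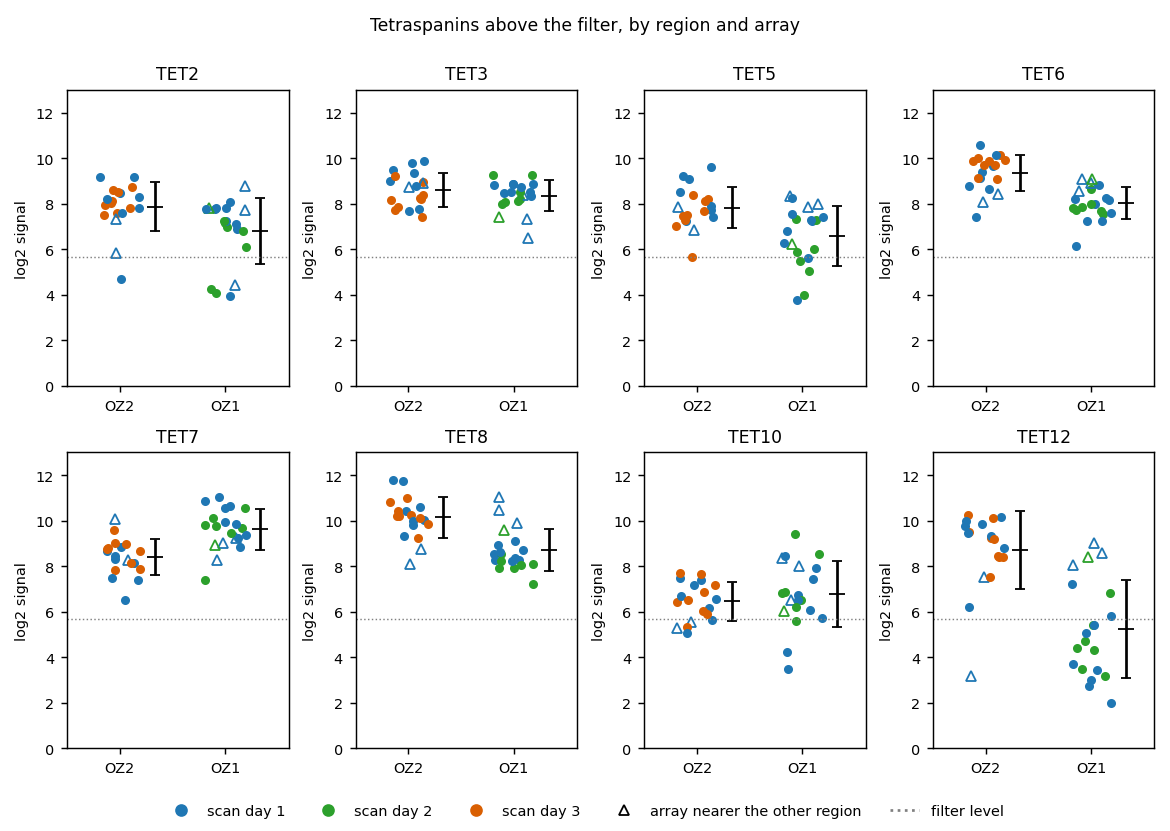
Log2 signal (y axis) of the 8 tetraspanins above the filter in OZ2 (left) and OZ1 (right); each point is 1 array coloured by scan day, open triangles are the 6 arrays nearer the other region, bars are mean and SD, and the dotted line is the filter level of 5.69. TET12, TET8 and TET6 stand higher in OZ2 and TET7 lower, and the 4 open triangles of OZ1 are its highest points for TET12 and for TET8.

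TET12 (AT5G23030), known from sperm cells, differed most between the regions. Its log2 signal was 3.16 at the lowest, 9.24 at the median and 10.26 at the highest in OZ2, and 1.96, 4.88 and 9.02 in OZ1. The groups overlapped, but 11 of 19 OZ2 arrays lay above every OZ1 array, and no OZ1 array reached the OZ2 median. The means were 8.70 ± 1.71 (SD, n = 19) in OZ2 and 5.23 ± 2.14 (SD, n = 20) in OZ1, a log2 difference of 3.47 ± 0.58 SE (11.1-fold, limma adjusted p = 1.58e-05). Only 0.623% of the tested probe sets had a higher difference. The OZ1 mean lies under the filter level, so the size of the fold is uncertain.

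The overlap in TET12 came mostly from a few arrays. The lowest OZ2 array was OZ2-38 at 3.16, and the 4 highest OZ1 arrays were OZ1-10 (9.02), OZ1-2 (8.58), OZ1-3 (8.40) and then OZ1-6 (log2 signal 8.05). All 5 belong to the 6 that lay nearer the other region over the whole array. Without the 6, OZ2 ran between 6.21 and 10.26 and OZ1 between 1.96 and 7.20, and 16 of 17 OZ2 arrays lay above every one of the 16 OZ1 arrays. The difference was then 4.69 ± 0.43 (adjusted p = 4.25e-12). Since the 6 were picked by how they compare with the regions, leaving them out tends to reduce overlap by construction. In the fit blocked by scan day it was 3.09 ± 0.78 (adjusted p = 0.00798), and within scan day 1 its standard error was 0.89 (adjusted p = 0.038). The OZ2 means were 8.42 ± 2.23 on scan day 1 (SD, n = 10) and 9.01 ± 0.88 on scan day 3 (SD, n = 9), and the OZ1 means were 5.33 ± 2.44 on scan day 1 (SD, n = 12) and 5.09 ± 1.75 on scan day 2 (SD, n = 8).

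TET8 (AT2G23810), the vesicle marker, had log2 signals of 8.08, 10.19 and 11.80 (lowest, median and highest) in OZ2 and of 7.21, 8.43 and 11.02 in OZ1. OZ1-10 at 11.02 and OZ1-6 at 10.48 exceeded the OZ2 median, and OZ2-38 was the lowest OZ2 array. The mean was 10.14 ± 0.91 (SD, n = 19) in OZ2 and 8.69 ± 0.92 (SD, n = 20) in OZ1, a log2 difference of 1.45 ± 0.28 SE (2.72-fold, limma adjusted p = 0.000144). Without the 6 arrays the groups no longer overlapped. These 6 held the 4 highest OZ1 and the 2 lowest OZ2 values of TET8. They were picked by how they compare with the 2 regions, so leaving them out tends to reduce overlap by construction. The share of all probe sets that separate in this way is not given here. The 17 OZ2 arrays then lay between 9.24 and 11.80 and the 16 OZ1 arrays between 7.21 and 9.12, with a difference of 2.03 ± 0.22 (adjusted p = 2.91e-10). Blocked by scan day, TET8 differed by 1.02 ± 0.37 and missed the threshold (adjusted p = 0.0624), as it did within scan day 1 (adjusted p = 0.14).

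TET6 (AT3G12090) and TET5 (AT4G23410), the pair with a shared role in root growth, were both higher in OZ2. TET6 had log2 signals of 7.43, 9.66 and 10.60 (lowest, median and highest) in OZ2 and of 6.15, 8.01 and 9.10 in OZ1. No OZ1 array reached the OZ2 median, and 14 of 19 OZ2 arrays lay above every OZ1 array. The mean was 9.37 ± 0.80 (SD, n = 19) in OZ2 and 8.04 ± 0.72 (SD, n = 20) in OZ1, a log2 difference of 1.33 ± 0.25 SE (2.51-fold, limma adjusted p = 7.79e-05). It held when blocked by scan day (1.01 ± 0.32, adjusted p = 0.0351) and missed the threshold within scan day 1 (adjusted p = 0.105). On scan day 3 the 9 OZ2 arrays averaged 9.73 ± 0.37 (SD), against 9.04 ± 0.96 for the 10 OZ2 arrays of scan day 1.

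TET5 had log2 signals of 5.68, 7.71 and 9.61 (lowest, median and highest) in OZ2 and of 3.77, 7.03 and 8.34 in OZ1. The groups overlapped widely, with 5 of 19 OZ2 arrays above every OZ1 array and 5 of 20 OZ1 arrays below every OZ2 array. The means were 7.84 ± 0.92 (SD, n = 19) in OZ2 and 6.59 ± 1.32 (SD, n = 20) in OZ1, a log2 difference of 1.25 ± 0.36 SE (2.38-fold, limma adjusted p = 0.00686). Blocked by scan day it was 1.11 ± 0.45 and did not pass (adjusted p = 0.107). The OZ1 arrays averaged 7.04 on scan day 1 (n = 12) and 5.92 on scan day 2 (n = 8).

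TET2 (AT2G19580) was the weakest of the 5 higher genes. Its log2 signal was 4.68, 8.03 and 9.18 (lowest, median and highest) in OZ2 and 3.97, 7.19 and 8.77 in OZ1. The ranges overlapped almost entirely, though 18 of 20 OZ1 arrays lay below the OZ2 median. OZ1-31, OZ1-15, OZ1-16 and OZ1-6 lay between 3.97 and 4.44, below every OZ2 array. The log2 difference was 1.07 ± 0.39 SE (2.10-fold, limma adjusted p = 0.0346), and it passed in 32 of 39 fits that each left out 1 array. It did not pass without OZ1-6, OZ1-15, OZ1-16, OZ1-31, OZ2-10, OZ2-35 or OZ2-36, with adjusted p between 0.0503 and 0.0605. Blocked by scan day the difference was 0.54 ± 0.52 (adjusted p = 0.561), and after quantile normalization it was 1.05 ± 0.47 (adjusted p = 0.0966). With the shared title number as a fixed term it was 0.76 ± 0.43 (limma adjusted p = 0.21). The 4 low OZ1 arrays were all among those with over 5% of the signal in the hybridisation controls. Adding the control level to the model gave 1.32 ± 0.36 (adjusted p = 0.00515), and leaving out the 11 such arrays gave 0.84 ± 0.22 (adjusted p = 0.0024).

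TET7 (AT4G28050) was the tetraspanin with a called difference in the opposite direction. Its log2 signal was 6.52, 8.44 and 10.06 (lowest, median and highest) in OZ2 and 7.38, 9.73 and 11.04 in OZ1. Of the OZ2 arrays 18 of 19 lay below the OZ1 median, and the exception was OZ2-38 at 10.06. The mean was 8.40 ± 0.80 (SD, n = 19) in OZ2 and 9.63 ± 0.90 (SD, n = 20) in OZ1, a log2 difference of -1.23 ± 0.27 SE (2.34-fold lower in OZ2, limma adjusted p = 0.000542). It passed when blocked by scan day (-1.53 ± 0.36, adjusted p = 0.005) and within scan day 1 (adjusted p = 0.0205). All 14 numbers that occur in both regions' titles had TET7 lower in their OZ2 array, by 0.47 to 3.67 on the log2 scale. The 14 OZ2 arrays were above their same-numbered OZ1 array in 13 cases for TET12 and for TET8, with number 10 the exception in both, and in 13 for TET6, with number 9 the exception. The same count was 12 for TET2, 11 for TET5 and 7 each for TET3 and TET10. These are descriptions, since a shared number was not treated as a pair.

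TET3 (AT3G45600), found at plasmodesmata, and TET10 (AT1G63260) did not pass. TET3 was the steadiest of the 8, with 8.62 ± 0.75 (SD, n = 19) in OZ2 and 8.37 ± 0.67 (SD, n = 20) in OZ1, against a median SD over all tested probe sets of 1.15 in OZ2 and 1.03 in OZ1. Its log2 difference was 0.26 with a 95% interval between -0.22 and 0.73 (limma adjusted p = 0.456). TET10 averaged 6.45 ± 0.85 in OZ2 and 6.77 ± 1.46 in OZ1, a log2 difference of -0.32 with a 95% interval between -1.09 and 0.45 (adjusted p = 0.578). The sign of TET10 turned with array weights (0.22) and without the arrays of over 5% hybridisation controls (0.37), and that of TET3 without the 6 arrays (-0.01). The OZ1 arrays of TET10 ran between 3.46 and 9.42, both beyond the OZ2 range of 5.06 to 7.72.

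**Figure D2:**
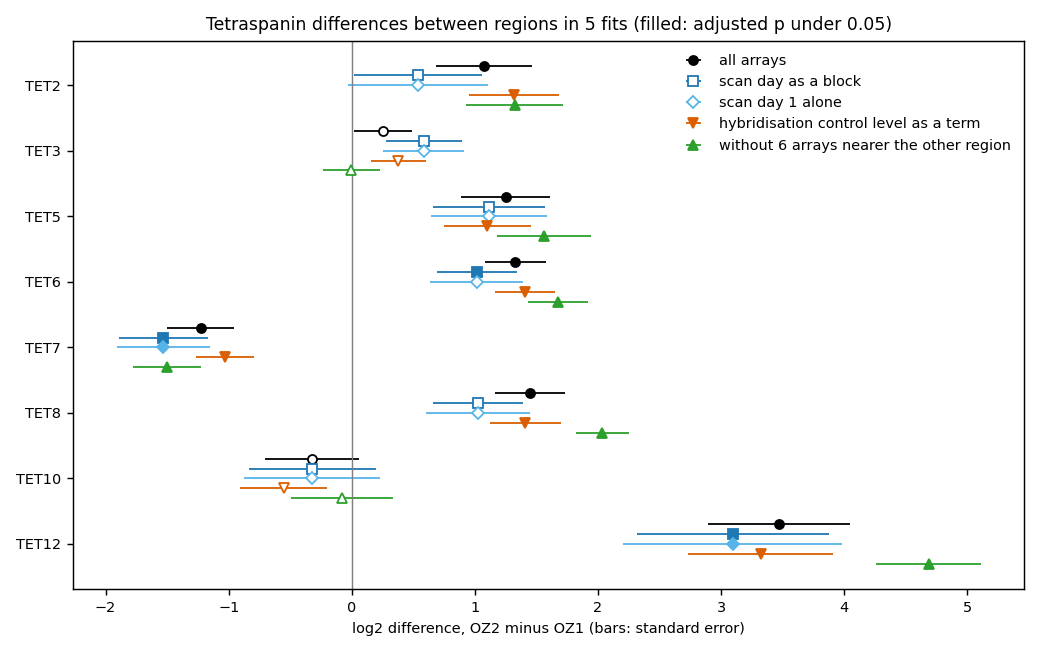
Log2 difference OZ2 minus OZ1 (x axis) with its standard error for the 8 tetraspanins above the filter in 5 limma fits; filled symbols have an adjusted p under 0.05. TET12 and TET7 are filled in every fit drawn, TET6 is open within scan day 1, and TET2, TET5 and TET8 are open in both fits that rest on scan day 1.

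The 7 tetraspanins below the filter were dim in both regions and none passed when tested with no filter. Their log2 differences lay between -0.25 (TET4) and 0.85 (TET15), with adjusted p between 0.294 and 0.996. TET13 (AT2G03840), the gene of the root apex and lateral root primordia, had log2 signals of 2.35, 5.70 and 7.86 (lowest, median and highest) in OZ2 and of 1.39, 5.18 and 7.85 in OZ1. The ranges nearly coincided, and the difference was 0.54 with a 95% interval between -0.49 and 1.57. TET11 (AT1G18520) averaged 5.60 ± 1.98 (SD, n = 19) in OZ2 and 5.67 ± 1.52 (SD, n = 20) in OZ1, with 12 arrays of each region above the filter level, and came closest to passing it. TET16 (AT1G18510), its neighbour on the chromosome, was above the level on 1 OZ2 and 2 OZ1 arrays.

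TET14 (AT2G01960) had 5.86 ± 1.11 in OZ2 and 5.17 ± 1.89 in OZ1, and 8 of 20 OZ1 arrays lay below every OZ2 array. TET15 (AT5G57810) had a mean of 4.69 in OZ2 and 3.83 in OZ1, and TET4 (AT5G60220) had 4.80 ± 1.73 in OZ2 and 5.05 ± 1.66 in OZ1. TET9 (AT4G30430), described in egg cells, had a median of 4.09 in OZ2 and 3.41 in OZ1, yet reached 9.24 on OZ2-22 and 7.97 on OZ2-32. Both arrays have over 5% of their signal in the hybridisation controls. Across the 19 OZ2 arrays the level of those controls had r = 0.81 with TET4, 0.78 with TET11, 0.66 with TET15, 0.64 with TET16, 0.54 with TET9, 0.28 with TET13 and 0.21 with TET14. Across the 20 OZ1 arrays it had r = 0.24 with TET4, 0.31 with TET11, 0.47 with TET15, 0.53 with TET16, 0.48 with TET9, 0.54 with TET13 and 0.35 with TET14. These correlations describe arrays that each have 1 scaling, and all 7 were positive in both regions. The part of the controls in the values of these genes was not tested.

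**Figure D3:**
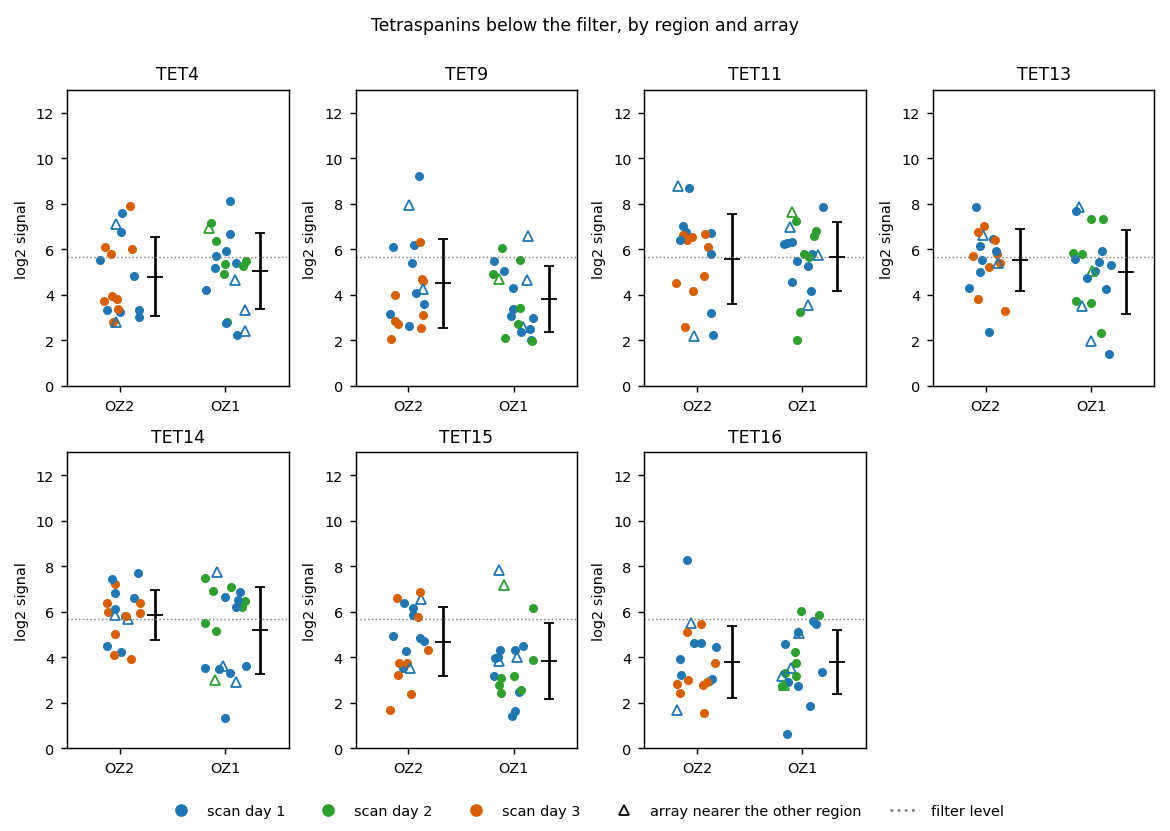
Log2 signal (y axis) of the 7 tetraspanins below the filter in OZ2 (left) and OZ1 (right), with symbols, bars and dotted line as in the plot of the 8 brighter genes. Points scatter around and below the filter level of 5.69 in both regions, and the regions overlap for every gene.

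TET12 and TET8 varied together within each region. Their log2 signals had r = 0.74 across the 19 OZ2 arrays (Spearman's rho = 0.63) and r = 0.74 across the 20 OZ1 arrays (rho = 0.55). Once the 6 arrays were left out, r was 0.53 over 17 and 0.23 over 16, and rho was 0.49 and 0.13. In OZ1 the relation therefore rested on OZ1-2, OZ1-3, OZ1-6 and OZ1-10. TET6 and TET2 had r = 0.72 in OZ2 (Spearman's rho = 0.51) and r = 0.44 in OZ1 (rho = 0.34). Without the 6 arrays r was 0.65 in OZ2 and 0.44 in OZ1, and rho was 0.32 and 0.18. TET7 and TET5 had r = -0.76 in OZ2 (Spearman's rho = -0.69) and r = -0.18 in OZ1 (rho = -0.44). Without the 6 arrays their r was -0.75 in OZ2 and 0.003 in OZ1. TET7 and TET10 had r = -0.11 in OZ2 (rho = -0.01) and r = -0.78 in OZ1 (rho = -0.67). Without the 6 arrays their r was 0.07 in OZ2 and -0.82 in OZ1. Only some pairs of members are given here. Others correlated as well, such as TET3 and TET8 (r = 0.47 in OZ2 and -0.64 in OZ1). Whether these correlations differ between the regions was not tested. In OZ1 the level of the hybridisation controls had r = -0.78 with TET7 and 0.80 with TET10, so both moved with it there. The points of all these correlations share 1 scaling per array, and they are given as descriptions.

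Over all 39 arrays, the named gene with a level most like that of TET12 was EXPA18, an expansin of root hair cells (r = 0.91 among 7577 genes' probe sets compared), followed by AT3G49960 (0.91) and AT4G33730 (0.90). For deviations from the region means the closest were AT3G49960 (0.84), EXPA18 (0.82) and AT3G51330 (0.81). EXPA18 was itself higher in OZ2 by 4.23 ± 0.59. Within OZ2 the correlation of TET12 with EXPA18 was 0.91, and 0.91 without OZ2-32 and OZ2-38. Within OZ1 it was 0.77, and 0.32 without the 4 arrays nearer OZ2. TET6 was most like AT1G56700 (r = 0.83), AT1G08340 (0.83) and HCT, an acyltransferase of the lignin pathway (0.83), and by deviations AT5G35200 (0.72), the dehydrin gene COR47 (0.72) and AT3G08930 (0.71). HCT was higher in OZ2 by 1.98 ± 0.36 (limma adjusted p = 4.95e-05). Within OZ1 the correlation of TET6 with HCT was 0.75, and 0.55 without the 4 arrays nearer OZ2. With COR47 it was 0.69 and then 0.38. Within OZ2, without OZ2-32 and OZ2-38, HCT went from 0.64 to 0.53 and COR47 from 0.75 to 0.67.

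**Figure D4:**
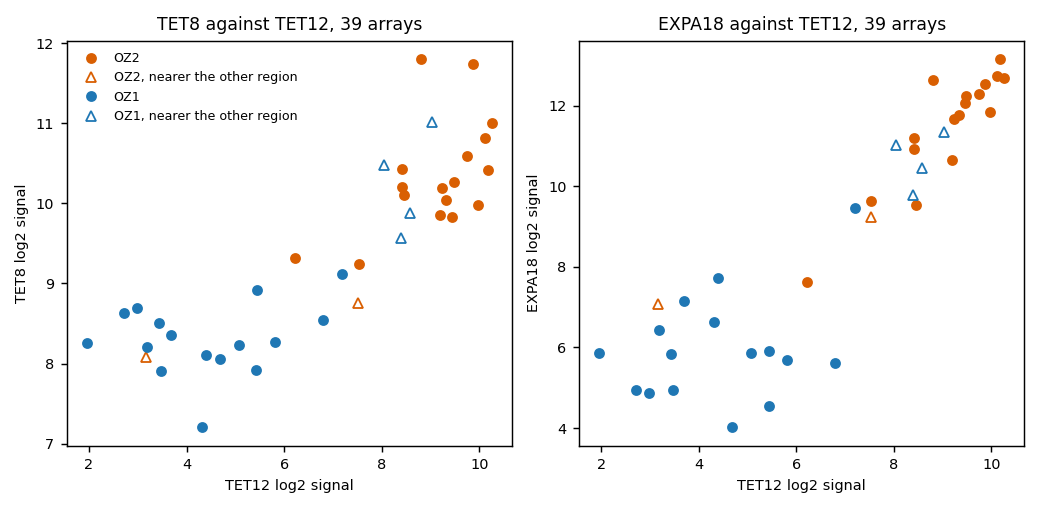
Log2 signal of TET8 (left) and EXPA18 (right) on the y axes against that of TET12 on the x axes, 1 point per array, OZ2 in orange and OZ1 in blue, with open triangles for the 6 arrays nearer the other region. OZ1-2, OZ1-3, OZ1-6 and OZ1-10 lie among the OZ2 arrays in both panels and OZ2-38 among the OZ1 arrays; within OZ2, EXPA18 follows TET12 at r = 0.91.

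Some marker genes of other cell types differed between the regions as well, and others did not. All gene lists were matched to the probe table by symbol, so a gene without a match was not analysed here, whether or not the array measures it. Of 25 listed root hair genes 3 were matched, EXPA7, EXPA18 and SCN1. Of these, EXPA7 and EXPA18 were higher in OZ2, where 13.3% of all tested probe sets were called higher. Blocked by scan day, EXPA18 passed (limma adjusted p = 0.0026) and EXPA7 did not (adjusted p = 0.096), where 4.56% were called higher. SCN1 did not pass (0.32, limma adjusted p = 0.282). The summed signal of all 3, SCN1 included, was 789 to 20491 (median 9379) in OZ2 and 631 to 8459 (median 1698) in OZ1. Of 26 cell division genes 8 were matched and 7 were tested. Of these, 6 were lower in OZ2 and none higher, where 15.6% of all tested probe sets were called lower and 13.3% higher. HTB4, a histone H2B gene, was lower by 1.57 and HTB2 by 2.21, and AUR2 did not pass (-0.14, limma adjusted p = 0.878). Blocked by scan day, 1 of the 7 passed, HTB4 (lower by 1.10, limma adjusted p = 0.0474), where 6.7% of all tested probe sets were called lower. The difference of HTB2 was then -0.98 (adjusted p = 0.214). The summed signal of the cell division list was 1454 to 9811 (median 3138) in OZ2 and 2941 to 29892 (median 9127) in OZ1. Such a sum rests mainly on its brightest genes, here histone H2B genes. In OZ1 HTB4 averaged log2 12.31 and HTB1 10.59, against 7.96 for PRL and 7.77 for AUR1. Of 20 lateral root genes 4 were matched and 3 were tested. In OZ2, LBD16 was higher by 1.44 and RALFL34, a signalling peptide gene, lower by 2.19, against 13.3% and 15.6% of all tested probe sets. Blocked by scan day RALFL34 still passed (adjusted p = 0.00199) and LBD16 did not (adjusted p = 0.206). PUCHI of the lateral root list (-0.25, limma adjusted p = 0.711) and OPS of the phloem list (0.25, adjusted p = 0.762) did not pass. The part of these cell types in the tetraspanin differences was not tested. The lists for endodermis, xylem and root cap had no matched probe set and were not analysed here.

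The lists for extracellular vesicles and exocytosis, sphingolipid synthesis, membrane domains and tetraspanin relatives gave few values. Of 26 genes of extracellular vesicles and exocytosis, the subunits EXO84B, SEC6 and SEC15B of the exocyst, which tethers secretory vesicles, and KEU, a regulator of vesicle fusion, were matched. None of the 4 passed in either direction, with log2 differences of -0.48, 0.16, 0.34 and -0.60 in that order and a median of -0.16, against -0.09 over all tested probe sets. Of 31 sphingolipid genes 4 were matched and 3 were tested. The untested gene, TSC10B, lay below the filter, with mean log2 signals of 4.41 in OZ2 and 6.50 in OZ1. LCB2, a subunit of the first enzyme of sphingolipid synthesis, was lower in OZ2 by 0.81 (limma adjusted p = 0.0162). Of all tested probe sets 15.6% were called lower. Blocked by scan day the difference of LCB2 was -0.68 (adjusted p = 0.222). TSC10A and DPL1 had log2 differences of -0.27 and -0.06. No gene of the lists for membrane domains and for tetraspanin relatives under other symbols had a matched probe set.

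Along the submitted order, beyond the step between the regions, 0 of the 8 tetraspanins above the filter passed the test with 3 harmonics, where 56 of 13647 probe sets (0.41%) did. At an unadjusted p under 0.05, 2 of the 8 passed, TET7 and TET10, as did 13.6% of all tested probe sets. Apart from the region step, TET7 spanned 1.80 log2 units in the fit, highest at position 1 and lowest at position 11 (unadjusted limma p = 0.00477, adjusted p = 0.144). TET10 spanned 2.81, highest at position 10 and lowest at position 30 (unadjusted p = 0.0169, adjusted p = 0.24). TET7 was thus low and TET10 high in the same stretch of OZ1, where OZ1-16 at position 10 had the lowest TET7 (7.38) and the highest TET10 (9.42) of the region. Without OZ1-16 the unadjusted p was 0.0159 for TET7 and 0.0734 for TET10. Once the hybridisation control level was in the model, neither had an unadjusted p under 0.05 (0.202 for TET7 and 0.156 for TET10). With that term 0 of all tested probe sets passed the adjusted threshold for the order, against 56 without it. TET12 spanned 3.01 (adjusted p = 0.781), TET8 of 2.09 (0.678) and TET6 of 0.95 (0.881). Each region holds consecutive positions, so the order and the region cannot be told apart for a slow trend.

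**Figure D5:**
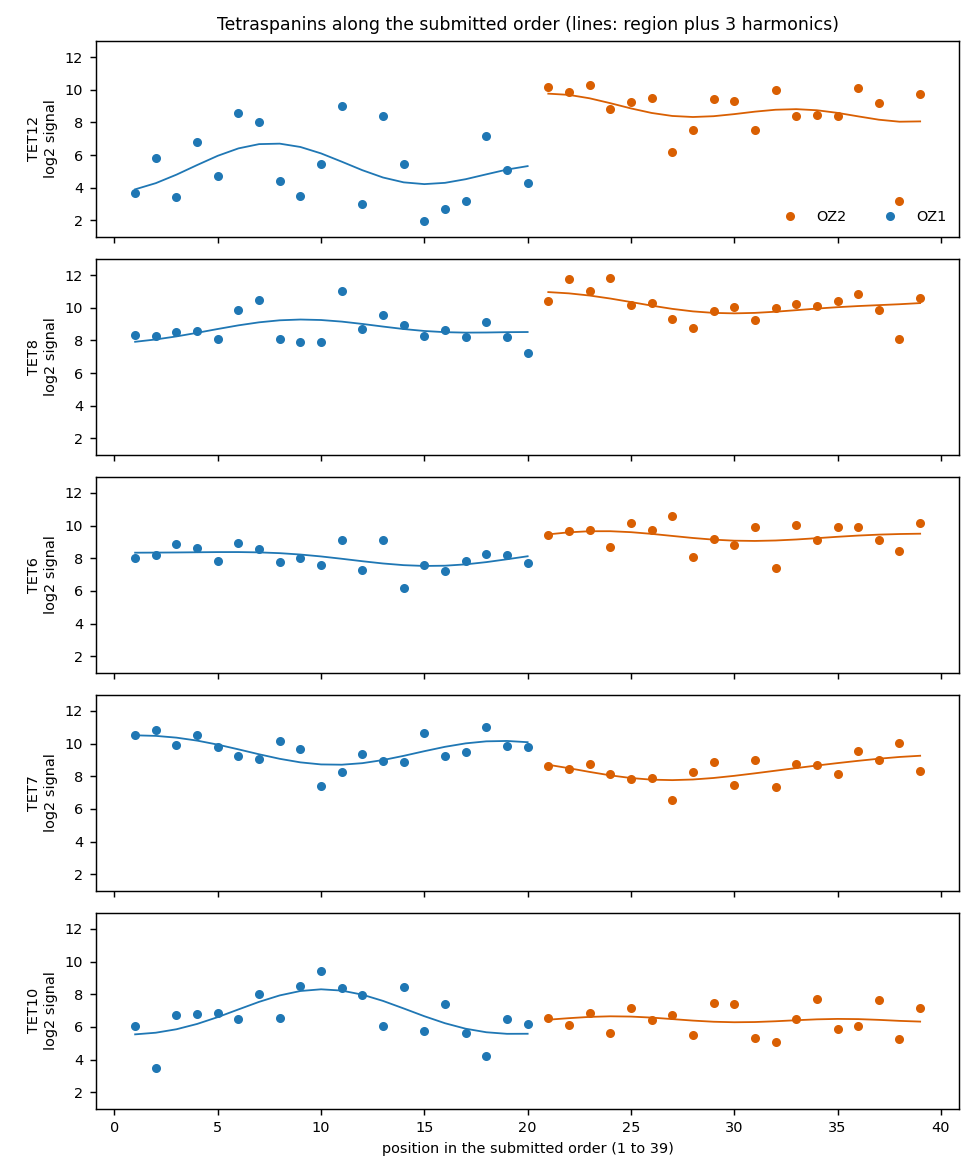
Log2 signal (y axis) of TET12, TET8, TET6, TET7 and TET10 on each of the 39 arrays by position in the submitted order (x axis), OZ1 in blue at positions 1 to 20 and OZ2 in orange at positions 21 to 39; lines are the fit of region plus 3 harmonics. The points of TET12, TET8 and TET6 lie mostly higher in OZ2 and those of TET7 mostly lower. The lines of TET7 and TET10 bend in opposite directions around position 10. In this fit none of these genes passed for the region (limma adjusted p = 0.408 to 0.894) or for the order (0.144 to 0.881). Of all 13647 tested probe sets, 0 passed for the region in this fit and 56 for the order. Order and region overlap, so this fit cannot decide on the region step of single genes.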

How the data were processed

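Signals of Affymetrix ATH1 arrays were analysed for 19 OZ2 and 20 OZ1 samples, grouped by title. The authors deposited a linear intensity for each probe set; the submitters' processing notes name MAS5. Its version and the genome build are not given in the sources used here. On all arrays the trimmed mean (2nd to 98th percentile) was 249.8 to 249.9, so the deposited intensities were scaled per array. The median signal was 54.4 to 164. Scan days came from other records of the instrument, also deposited.

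Of 22810 probe sets 64 Affymetrix controls were left out. Log2 intensities of the 13647 probe sets above the 40th percentile entered a linear model in R 4.3.3 with the package limma 3.58.1 (moderated statistics, trended prior, two-sided), with Benjamini-Hochberg adjustment and a threshold of 0.05. For the order, 3 harmonics were added to the region and their joint F-test taken. A gene has the probe set of highest mean, and each member has 1. The fits were tested on simulated data. Names come from the probe table and TAIR10.1. The members, gene lists and alternatives were chosen with earlier results of these data known. The named genes are all members, the 3 genes most like TET12 and TET6, and called genes of each list with the 2 smallest adjusted p. No label says whether arrays come from separate plants beyond the series' mention of individual roots, so p-values measure the spread between these arrays, whose number limits the precision.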

Additional observations from a re-analysis of the deposited data

How the results depend on the processing

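The count of 5 tetraspanins higher in OZ2 stayed within 1.5 times under array weights, robust eBayes, no filter, a 60th percentile filter, an offset of 16 before the log, quantile normalization (4), a term for the hybridisation controls, and without the 6 arrays nearer the other region or the 11 with over 5% hybridisation controls. The share of all tested probe sets called higher moved with the setting: 21% with array weights, 13.3% with robust eBayes, 8.41% with no filter, 15.5% with the 60th percentile filter, 14.2% with the offset, 11.6% after quantile normalization, 13.4% with the control term, 18.9% without the 6 arrays and 17.4% without the 11, against 13.3% with all arrays. The count was 2 with the scan day as a block, 1 within scan day 1 alone, and 4 within scan day 1 without the arrays nearer the other region, a setting chosen after seeing the data. With the order as terms both counts were 0, as were the calls over all probe sets, since order and region overlap. Otherwise the 1 lower gene remained 1, and without each array in turn the counts were 4 to 5 higher and 1 lower. The share of all tested probe sets called lower was 25.5% with array weights, 15.6% with robust eBayes and 8.66% with no filter. It was 21.8% with the 60th percentile filter, 16.4% with the offset, 14.8% after quantile normalization and 15.3% with the control term. Without the 6 arrays it was 22.3% and without the 11 it was 20.7%, against 15.6% with all arrays. The median difference of all probe sets was -0.14 after quantile normalization and -0.09 before. With the shared title number as a fixed replicate block 4 were higher, all but TET2, and 1 lower (12.4% and 14% of all tested probe sets). As a random block 5 were higher and 1 lower (13.7% and 16.1%). No label says whether a shared number marks the same root, and same-numbered arrays were not treated as pairs. The correlation of their deviations was -0.248 to 0.195 (median 0.0281), against a median of -0.0222 for other pairs. Of 14 OZ1 arrays, 3 correlated best with their own number. These values cannot decide whether the numbers mark pairs. The count varying with the order was 0 except with 2 harmonics, where TET7 passed (1 gene, limma F-test adjusted p = 0.0493). Over all tested probe sets 305 passed with 2 harmonics, against 56 with 3 harmonics and 0 with 1 harmonic. TET10, which did not pass in any setting, had a positive difference also with the order as terms (0.79) and within scan day 1 without the arrays nearer the other region (0.24). Each gene has 1 probe set, so other probe sets could not be tried.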
